A study of Homo sapiens with 10 samples.

Results

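The STAT5 branch of cytokine signaling was examined through 10 genes of the 19590 in the deposited RNA-Seq table. They were taken by symbol, with no threshold on their values, and comprise the transcription factors STAT5A and STAT5B, the kinases PIM1, PIM2 and PIM3, the feedback inhibitors CISH, SOCS1, SOCS2 and SOCS3, and the cytokine OSM. All 10 averaged 10 or more normalized counts across the 8 libraries, the filter that 13110 genes passed in all. The cells were MV4-11, a human acute myeloid leukemia line that carries an internal tandem duplication of the receptor kinase FLT3. The 4 control libraries came from cells that received the CRISPR control vector, and the 4 IRF8 knockout libraries from IRF8 KO clones. Cas9 and a guide were delivered by lentivirus with puromycin selection, and clones were grown by limited dilution. The study's methods describe fewer MV4-11 knockout clones than there are knockout libraries, made with different guides. The labels do not say which clone a knockout replicate is, or whether replicates were separate cultures, so the p-values measure only the spread between these samples, which may be technical or belong to single clones.

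In the JAK-STAT pathway, a cytokine receptor activates JAK kinases, which phosphorylate STAT factors that then enter the nucleus and bind DNA. FLT3 with an internal tandem duplication is known to drive STAT5 without its ligand, and PIM1, PIM2, CISH and the SOCS genes are textbook targets of STAT5. The PIM kinases promote survival and translation, whereas CISH and the SOCS proteins bind receptors or JAK kinases and damp the signal. IRF8 is a transcription factor of the interferon regulatory family that binds interferon response elements and, with the ETS factor PU.1, composite elements.

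Promoter sequences are shown for 3 of these genes because CISH and SOCS1 are the members with a motif match, and PIM1, a further STAT5 target, is shown beside them without one. RefSeq entries of assembly GRCh38.p14 gave 11 windows for 8 of the 10 members, with 3 windows for STAT5A and 2 for SOCS3. OSM and SOCS2 had no entry. Each searched window held 300 bases, of which the 250 before the annotated start are printed, 5′ to 3′ on the strand of the gene. Capitals mark matches on either strand to the STAT motif TTCNNNGAA or to the core of the interferon-stimulated response element (GAAA, any 2 bases, GAAA).
CISH, chr3:50611775-50612024, minus strand: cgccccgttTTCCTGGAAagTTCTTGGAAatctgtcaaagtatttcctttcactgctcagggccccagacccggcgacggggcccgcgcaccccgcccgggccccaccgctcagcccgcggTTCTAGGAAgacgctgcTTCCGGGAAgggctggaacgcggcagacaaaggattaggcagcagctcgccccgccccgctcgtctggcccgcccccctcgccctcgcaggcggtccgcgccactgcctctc
SOCS1, chr16:11256205-11256454, minus strand: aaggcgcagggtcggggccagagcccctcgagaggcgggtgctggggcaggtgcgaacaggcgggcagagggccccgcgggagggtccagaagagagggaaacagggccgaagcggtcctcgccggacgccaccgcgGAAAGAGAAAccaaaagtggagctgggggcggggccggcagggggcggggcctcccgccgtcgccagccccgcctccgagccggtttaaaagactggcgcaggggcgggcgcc
PIM1, chr6:37169902-37170151, plus strand: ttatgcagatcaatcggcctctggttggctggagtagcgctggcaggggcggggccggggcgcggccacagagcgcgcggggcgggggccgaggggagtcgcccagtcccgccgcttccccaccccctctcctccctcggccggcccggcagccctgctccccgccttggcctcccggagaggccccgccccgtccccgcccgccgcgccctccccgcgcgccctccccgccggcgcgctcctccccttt
The CISH window held 4 matches to TTCNNNGAA, which began 241, 230, 129 and 112 bases before the start. Of all 35116 promoter windows in the reference table, 7.66% held at least 1 such match and 7 windows, from 6 of 27305 genes, held at least 4. The SOCS1 window held 1 match to the interferon element core, 113 bases before the start, and 3.57% of all windows held one. The ETS-IRF composite element (GGAA, any 2 bases, GAAA), which can overlap the interferon element, was in 2.82% of all windows and in none of the members' windows. A match describes letters only, and no binding data were used here.

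The targeted gene was lower in all 4 knockout libraries but was still detected. IRF8 had 36891, 15192, 43016 and 22535 normalized counts in control replicates 1 to 4, and 6377, 2401, 12903 and 7819.7 in knockout replicates 1 to 4. The groups did not overlap, and the log2 fold change was -2.11 (SE 0.51, adjusted p = 0.0222 by limma). Without control replicate 1, control replicate 3 or knockout replicate 1, the adjusted p of limma rose above 0.05, to 0.0586 at most. An edited gene can keep its transcript, so this level checks the labels only in part. For its knockout cells, the study reported by Western blot that IRF8 protein was absent. The libraries held 48762519 to 65519047 reads on genes in control and 39560072 to 54048461 in knockout. All 10 myeloid markers were detected, although CD14 reached only 25.6 normalized counts in any library. Their summed level ran from 97192 to 101675 in control and from 121615 to 357840 in knockout. LYZ had a mean of 7961 in control and 83685 in knockout, and MPO had means of 767 and 13378. Not all of these markers rose, and the means of CD33, CSF1R and FLT3 were lower in knockout. T cell markers summed to at most 20.3 and erythroid markers to at most 48.8, B cell markers to between 167 and 923 over all libraries, and MS4A1 and HBB were 0 in every library. Epithelial markers, mainly KRT8, summed to 1473 to 3728 in control and 60.7 to 242 in knockout. The part of these marker shifts in the results for the members was not tested, and in bulk RNA fewer expressing cells and less RNA per cell cannot be told apart.

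Without a term for the replicate number, limma called none of the 10 members at an adjusted p below 0.05. In that fit 0 members were called higher, where 8.65% of all tested genes were, and 0 lower, where 9.56% were. Among 10 genes, 0 calls lies near those shares. At an unadjusted p below 0.05, limma gave 3 higher (PIM3, SOCS1 and SOCS3), where 15.6% of all tested genes were, and 0 lower, where 16.0% were. On the reads recovered from the values, edgeR called 0 members in either direction, against 8.60% of all tested genes higher and 9.20% lower. DESeq2 called 2 higher, PIM3 and SOCS3, where 12.8% of all tested genes were, and 0 lower, where 13.1% were. The study's own rule (unadjusted p below 0.01, at least 2-fold) was met by 0 members, against 10.9% of all tested genes. The log2 fold changes were above 0 in 8 of 10 members with a median of 0.32, where the median over all tested genes was -0.00. Control and knockout values did not overlap in 2 members, PIM3 and SOCS3, and in 25.3% of all tested genes.

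Libraries with the same replicate number in both groups deviated together (correlations across genes of 0.37 to 0.50). So did replicates 1 with 3 and 2 with 4 (0.40 to 0.47), so these correlations do not single out the same number. The comparison was also fitted with the number as a block. In this fit, 3 members rose in the knockout, PIM1, SOCS1 and SOCS3, where 14.2% of all tested genes did. None of the 10 members fell, against 14.6% of all tested genes. The labels do not say what the number stands for.

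**Figure D1:**
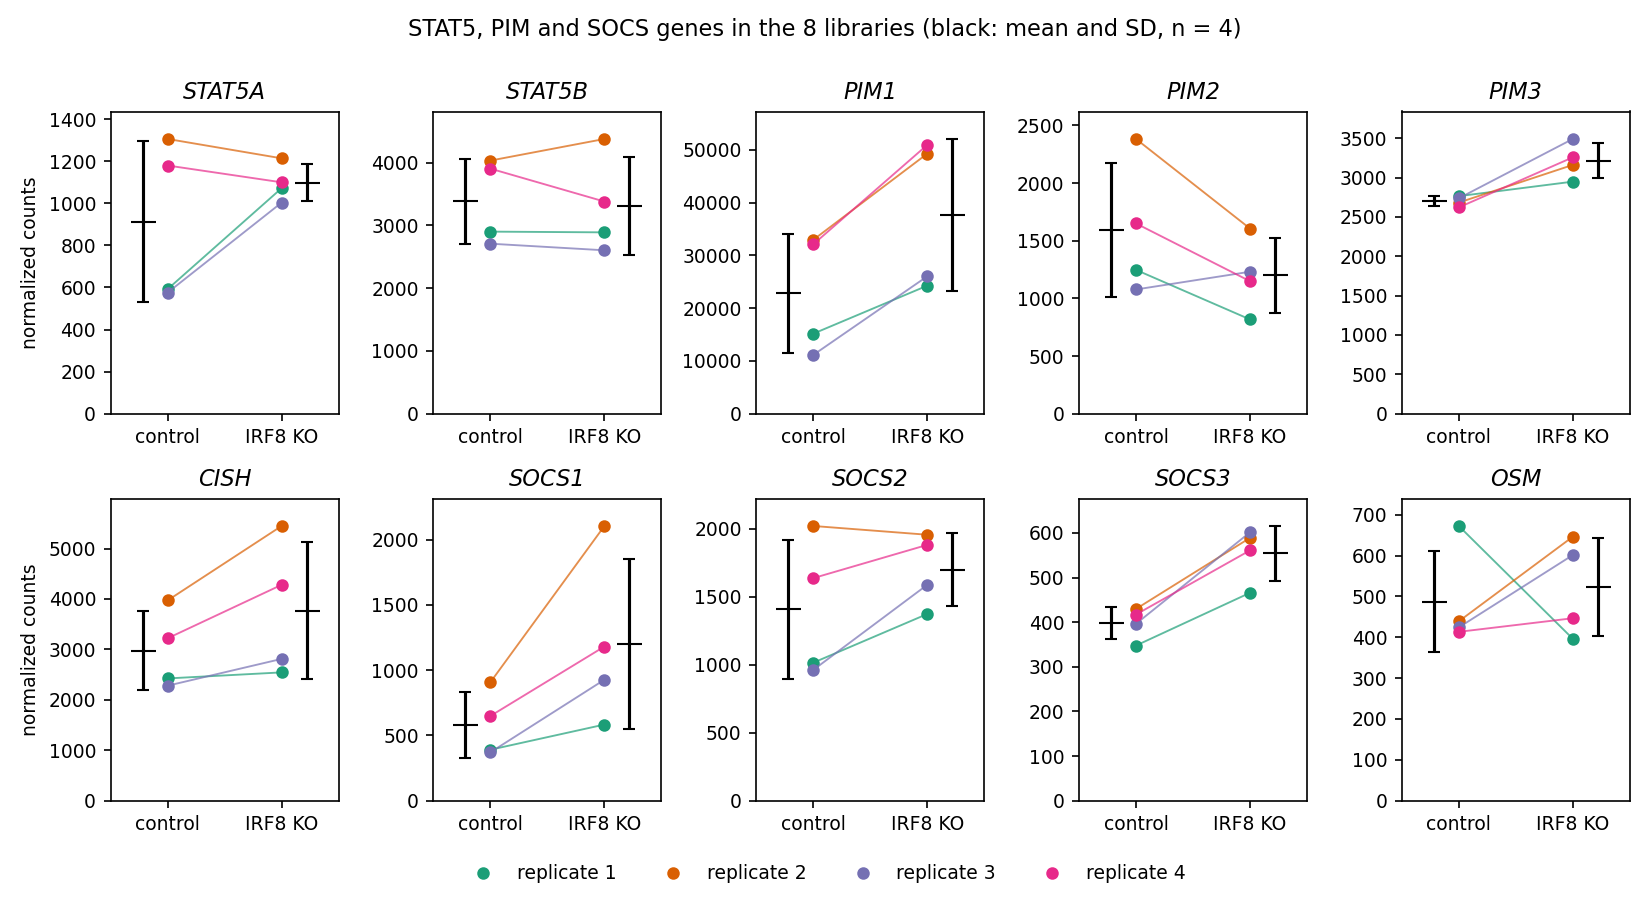
Normalized counts (vertical axes, linear, each from 0) of the 10 members in the 4 control and 4 IRF8 KO libraries, with lines joining libraries of the same replicate number and black bars for the mean and SD of each group (n = 4). PIM1, PIM3, CISH, SOCS1 and SOCS3 were higher in the knockout for 4 of 4 replicate numbers. The share of all tested genes that were higher for 4 of 4 numbers is not given here. OSM control replicate 1 stood at 673 above the other control values of 413 to 439.

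STAT5A and STAT5B, the closely related factors that give the pathway its output, did not pass the test in either fit. STAT5B had 2902, 4034, 2709 and 3906 normalized counts in control and 2890.0, 4379, 2604 and 3381 in knockout. Replicates 2 and 4 were high and replicates 1 and 3 low in both groups, and the group ranges overlapped. The log2 fold change of STAT5B was -0.04 (95% interval -0.50 to 0.42, adjusted p = 0.928 by limma). With the replicate block the interval narrowed to -0.28 to 0.20. For STAT5A, the control values were 592, 1306, 576 and 1179.8, and the knockout values were 1072, 1214, 1003 and 1099.8. The 4 knockout libraries lay close together, between the low control replicates 1 and 3 and the high replicate 2. STAT5A had a log2 fold change of 0.36 (SE 0.28, adjusted p = 0.435 by limma, 0.228 with the block). Between same-numbered libraries, the STAT5A difference on the log2 scale was 0.86 and 0.80 for replicates 1 and 3 but -0.11 and -0.10 for replicates 2 and 4. The paralogs are near-identical over long stretches, and how the counting treated reads that fit both was not stated.

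PIM1, a serine/threonine kinase whose transcript is short-lived and induced by cytokines, had normalized counts of 15146, 32925, 11116 and 32072 in control and 24242, 49244, 26009.8 and 50902 in knockout. Within each group replicates 2 and 4 were the high ones, and the groups overlapped because knockout replicates 1 and 3 lay below control replicates 2 and 4. The mean was 22815 ± 11307 (SD, n = 4) in control and 37599.5 ± 14437 (SD, n = 4) in knockout. The log2 fold change of 0.79, or 1.73-fold, had an SE of 0.41 without the block (adjusted p = 0.230 by limma) and of 0.13 with it (adjusted p = 0.00457 by limma). PIM1 was higher in the knockout for 4 of 4 replicate numbers.

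PIM2, the family member best known from lymphoid and plasma cells, had 1247, 2382, 1077 and 1649.6 normalized counts in control and 817, 1606, 1231 and 1149 in knockout. It was lower in the knockout for 3 of 4 replicate numbers, with replicate 3 the exception. Its log2 fold change was -0.38 (SE 0.28, adjusted p = 0.414 by limma, 0.121 with the block). PIM3, the third kinase of the family, varied least over the 8 libraries, 1.33-fold from lowest to highest, with 2763, 2682, 2736 and 2620.3 in control and 2948, 3159.9, 3489.7 and 3256 in knockout. Every knockout library was above every control library, by a small margin. The log2 fold change of PIM3 was 0.25 (SE 0.10, 1.19-fold), with an adjusted p of 0.123 by limma and 0.0196 by DESeq2. With the replicate block it was 0.106 by limma and 0.0679 by DESeq2, so that the call by DESeq2 was lost.

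CISH, a classical STAT5 target that competes with STAT5 for receptor sites, is the gene with 4 STAT motif matches in the window printed above. Its normalized counts were 2424, 3971, 2279.9 and 3220.1 in control and 2544, 5447, 2811 and 4280.2 in knockout. The order of the replicates was alike in both groups, with 2 highest and 4 next, and the groups overlapped. CISH was higher in the knockout for 4 of 4 replicate numbers, by 0.07 to 0.46 on the log2 scale. The log2 fold change of 0.31 (SE 0.28) gave an adjusted p of 0.502 by limma, and 0.0714 with the block (SE 0.11).

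SOCS1, an inhibitor of JAK kinases that interferons and STAT-activating cytokines induce, had the largest log2 fold change of the members. It had 390.2, 907, 370.5 and 649 normalized counts in control and 583, 2104, 926 and 1180.5 in knockout. Replicate 2 was the highest library of each group, and knockout replicate 1 fell within the control range. Its log2 fold change was 0.99, or 1.99-fold, with an SE of 0.42 (adjusted p = 0.144 by limma). With the block the SE was 0.16 and the adjusted p 0.00405 by limma, and SOCS1 was higher for 4 of 4 replicate numbers.

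SOCS3, which inhibits signaling through gp130 and the G-CSF receptor, had the lowest p-value of the members without the block. It had 348, 429.6, 396 and 417 normalized counts in control and 466, 589, 601 and 561 in knockout. The lowest knockout library was above the highest control library. SOCS3 had a log2 fold change of 0.48, or 1.39-fold, with an SE of 0.15 and an adjusted p of 0.0588 by limma. It passed the threshold with the block (adjusted p = 0.0379 by limma) and by DESeq2 (adjusted p = 0.00698). Leaving out both libraries of a replicate number from the blocked fit gave adjusted p-values by limma of 0.0716 to 0.124.

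SOCS2, which restrains growth hormone signaling and is itself a STAT5 target, had 1014, 2020.1, 961 and 1636 normalized counts in control and 1373, 1956, 1587 and 1881 in knockout. As for STAT5A, the knockout libraries lay closer together than the control libraries, and only replicate 2 was lower in the knockout. Its log2 fold change was 0.33 (SE 0.26, adjusted p = 0.432 by limma, 0.136 with the block). OSM, an interleukin-6 family cytokine that STAT5 induces in blood cells, had 673, 439, 424 and 413 in control and 396, 646, 601 and 447 in knockout. Control replicate 1 was the highest library and knockout replicate 1 the lowest, and the groups overlapped. OSM had a log2 fold change of 0.10 (SE 0.23, adjusted p = 0.818 by limma).

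**Figure D2:**
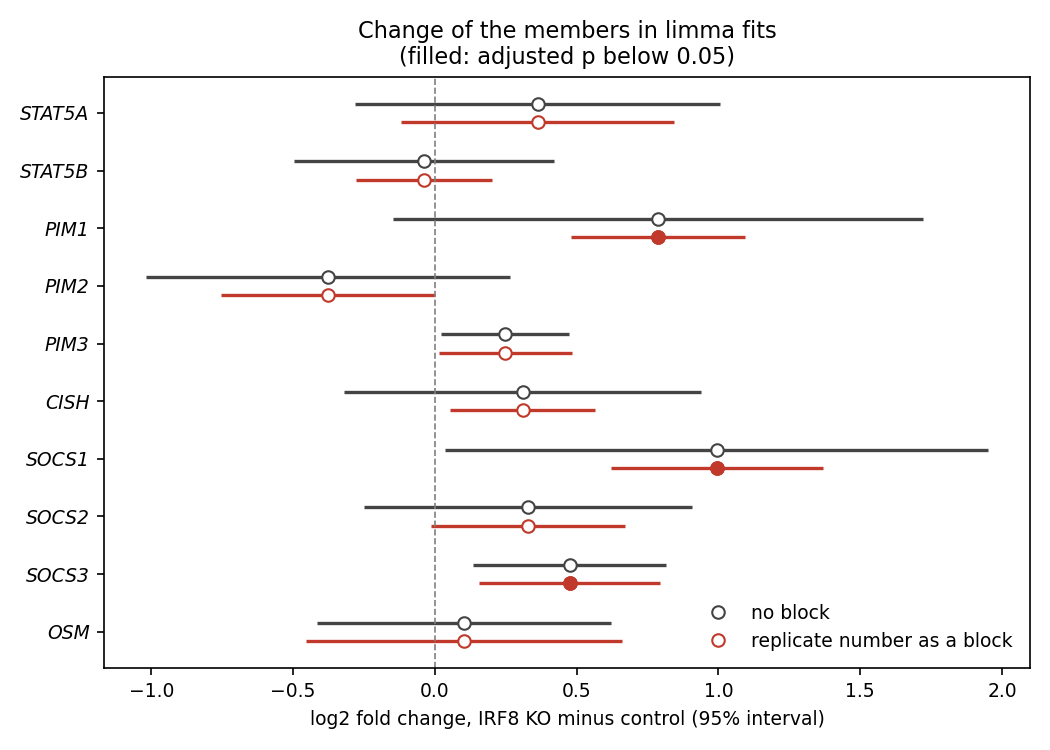
Log2 fold change of each member, IRF8 KO minus control (horizontal axis), with its 95% interval, from limma without the replicate block (grey) and with it (red); filled points have an adjusted p below 0.05. The estimates are the same in both fits, and the intervals of PIM1 and SOCS1 narrow from widths that reach 1.72 and 1.95 at the upper end to 1.09 and 1.37.

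The replicate number took up more of the spread of several members than the genotype did. The number has 3 degrees of freedom and the genotype 1, which by itself favors a larger share for the number. For STAT5B it held 94.8% of the sum of squares over the 8 libraries, on the log2 scale, and the genotype held 0.504%. For CISH the shares were 83.2% and 13.6%, and for PIM1 66.5% and 30.3%. The opposite order was seen in PIM3, with 9.24% for the replicate number and 78.4% for the genotype, and in SOCS3, with 21.7% and 76.5%. OSM left 80.4% to neither. The median share of the replicate number was 61.3% over the members and 44.3% over all tested genes. That of the genotype was 18.2% over the members and 26.3% over all tested genes. By an F-test of the replicate number in the blocked limma fit, PIM1 (adjusted p = 0.0200), SOCS1 (0.0338) and CISH (0.0386) varied with it, 3 of 10 members where 4.94% of all tested genes did. In 6 members (STAT5A, STAT5B, PIM1, CISH, SOCS1 and SOCS2), replicates 2 and 4 lay above replicates 1 and 3 in both groups, an order found in 18.9% of all tested genes. The reverse order was found in 0 members and in 19.3% of all tested genes. The test of the replicate number was added after the values were seen.

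**Figure D3:**
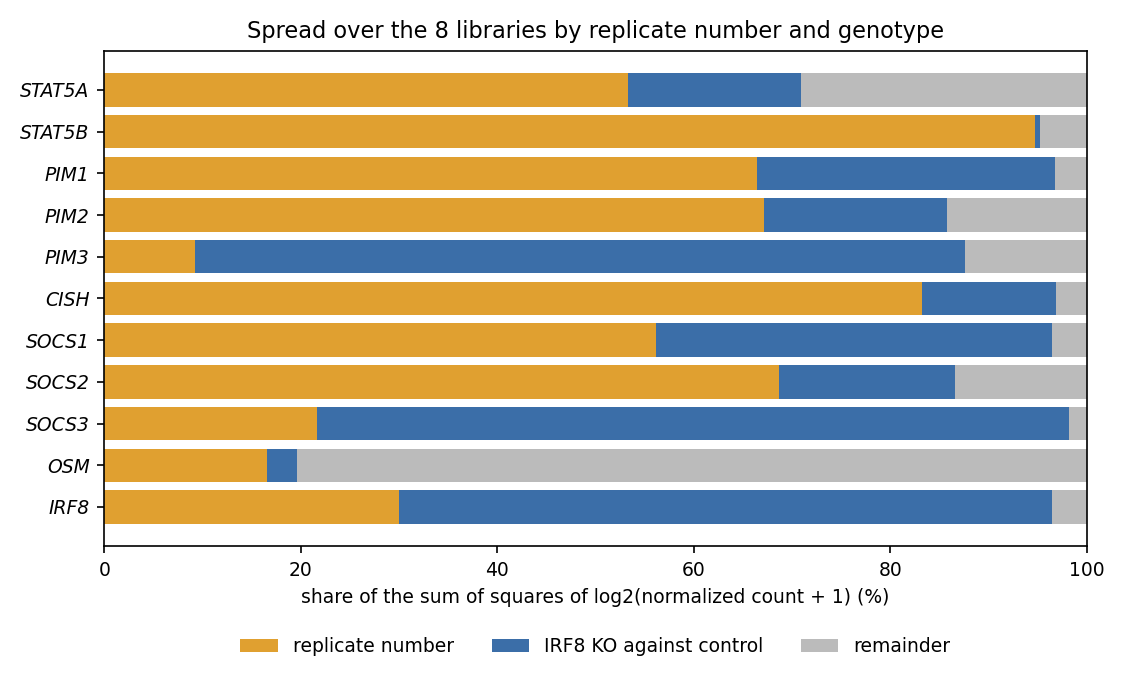
Share of the sum of squares of log2(normalized count + 1) over the 8 libraries (horizontal axis, %) that goes with the replicate number, with IRF8 KO against control, and with neither, for the 10 members and IRF8. The number has 3 degrees of freedom and the genotype 1; the number holds 94.8% in STAT5B and 9.24% in PIM3.

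Ratios between members within a library do not depend on how the library was scaled, and 6 were compared. The log2 ratio of PIM2 to PIM1 was -3.60, -3.79, -3.37 and -4.28 in control and -4.89, -4.94, -4.40 and -5.47 in knockout. Every knockout library was below every control library, and the difference was -1.16 (exact permutation test, two-sided, p = 0.0286, adjusted over the 6 ratios p = 0.0857). The log2 ratio of SOCS1 to CISH was -2.63, -2.13, -2.62 and -2.31 in control and -2.12, -1.37, -1.60 and -1.86 in knockout. It was higher by 0.68 (exact permutation p = 0.0286, adjusted p = 0.0857) and for 4 of 4 replicate numbers, with the lowest knockout library just above the highest control library. An exact p of 0.0286 is the smallest that 4 against 4 values allow, and signs flipped within replicate numbers cannot go below 0.125. The ratios of STAT5B to STAT5A, PIM3 to PIM1, SOCS2 to CISH and SOCS3 to CISH differed by -0.40, -0.54, 0.02 and 0.17, with exact permutation p-values of 0.114, 0.343, 0.943 and 0.543. Counts were not divided by transcript length, so the ratios say how members changed relative to each other and not which is more abundant.

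**Figure D4:**
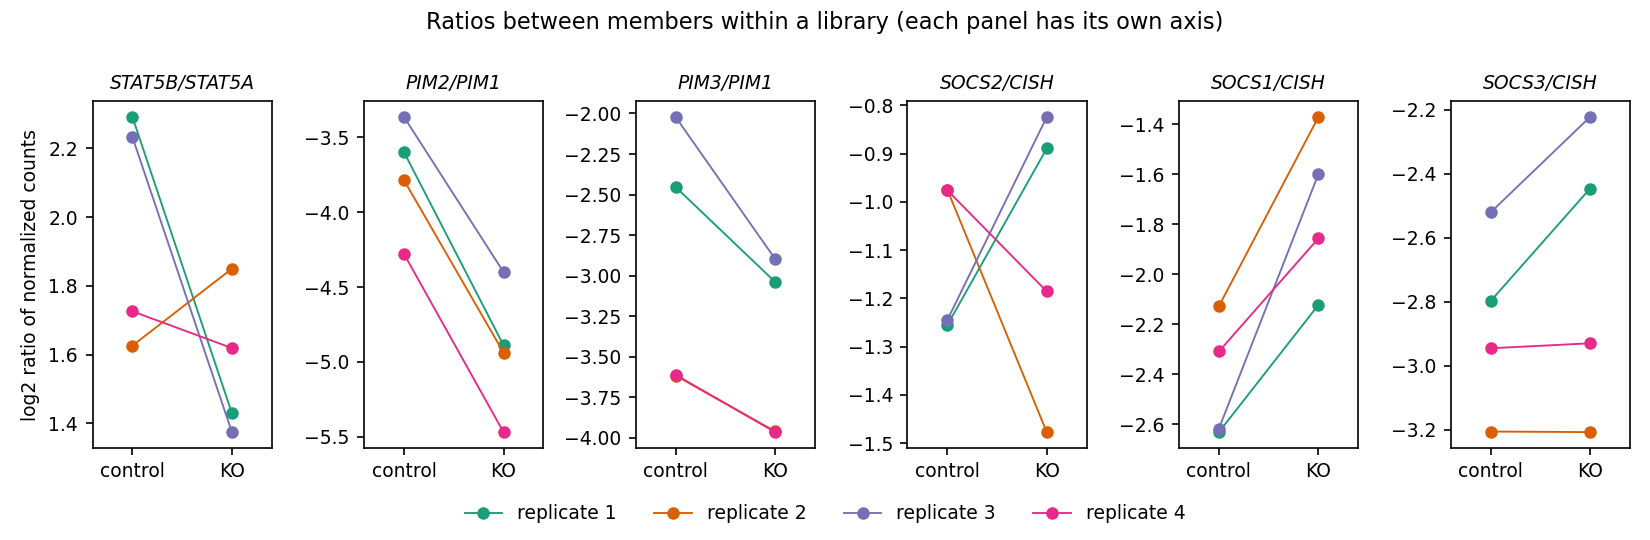
Log2 ratio of the normalized counts of 2 members in each library (vertical axes, each with its own range), with lines joining libraries of the same replicate number. PIM2/PIM1 fell from control to knockout in every line, by 1.16 on average, and SOCS1/CISH was higher in every line.

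Of the upstream receptors and the ligand FLT3LG, 4 of the 13 genes tested were lower in the knockout, where 9.56% of all tested genes were, and 0 higher, where 8.65% were. Their median log2 fold change was -0.31, and the 4 genes were receptor chains. IL3RA, the interleukin-3 receptor alpha chain, had 3398, 4418, 3681 and 5069 normalized counts in control and 867, 1417, 837 and 1039 in knockout (log2 fold change -2.01, SE 0.20, adjusted p = 0.000361 by limma). CSF2RB, the beta chain shared by the receptors for interleukin-3, interleukin-5 and GM-CSF, fell by 0.80 on the log2 scale (SE 0.12, adjusted p = 0.00234 by limma). IL2RB, a chain of the interleukin-2 and interleukin-15 receptors, fell from 1449 ± 403 to 298 ± 274 (SD, n = 4), with an adjusted p of 0.0240 by limma. EPOR, the erythropoietin receptor, had a log2 fold change of -0.57 (adjusted p = 0.0424 by limma), and leaving out any 1 library raised its adjusted p to between 0.0524 and 0.113. The call of IL2RB was lost without control replicate 2, control replicate 4 or knockout replicate 3 (adjusted p of limma up to 0.0608). FLT3 itself had 45083, 66773, 43847 and 66057 normalized counts in control and 45081, 52973, 39931 and 51255 in knockout, a log2 fold change of -0.21 (adjusted p = 0.483 by limma). With the block, FLT3LG and IL7R were also higher, and the other 5 listed receptors were below the filter.

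None of the 4 JAK kinases passed the test, and their median log2 fold change was -0.28. Of all tested genes, 8.65% were called higher and 9.56% lower. In lists of 4 genes, as in this paragraph, 0 calls lies near those shares. JAK2, the kinase of the interleukin-3 and erythropoietin receptors, had 943, 847, 1044 and 876 normalized counts in control and 829, 909.9, 428 and 765 in knockout. Knockout replicate 3 was the low library, and the log2 fold change was -0.39 (adjusted p = 0.298 by limma). Of the other STAT factors, 0 of 4 tested passed, and STAT3 had a log2 fold change of 0.20 (adjusted p = 0.589 by limma). The other SOCS genes, SOCS4 to SOCS7, had 0 of 4 called. Their log2 fold changes were all below 0, though only by 0.07 in SOCS5 and 0.006 in SOCS6. SOCS7 passed as lower with the block (-0.63, adjusted p = 0.00885 by limma). Among the subunits of the ubiquitin ligase that SOCS proteins recruit, 0 of 4 passed, and ELOB passed as higher with the block (0.44, adjusted p = 0.0202 by limma).

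Of the 12 phosphatases and other brakes on the pathway, 1 rose and 2 fell, where 8.65% and 9.56% of all tested genes did. PTPRC, the CD45 phosphatase that acts on JAK and SRC kinases, had 2238, 4345, 1841 and 4860.2 normalized counts in control and 8869, 5496, 7574 and 9606 in knockout. All knockout libraries were above the control libraries, with a log2 fold change of 1.34 (SE 0.33, adjusted p = 0.0246 by limma). That call was lost in 5 of the 8 fits that left out 1 library, with adjusted p-values up to 0.0708 by limma. PTPN6, the phosphatase SHP-1, fell from 25122 ± 1064 to 14422 ± 2506 (SD, n = 4), a log2 fold change of -0.82 (adjusted p = 0.00409 by limma). PTPN1, the phosphatase PTP1B, fell by 0.70 on the log2 scale (adjusted p = 0.00491 by limma). PTPN1 lies on chromosome 20, where the median log2 fold change of 344 tested genes was -0.92. The medians of the chromosomes that hold the members lay between -0.02 and 0.06. SH2B3, an adaptor that restrains JAK2, also passed as lower with the block (adjusted p = 0.0162 by limma).

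Other reported targets of STAT5 showed 0 of 14 tested genes higher and 1 lower, against 8.65% and 9.56% of all tested genes, with a median log2 fold change of 0.08. BCL2, the survival factor, had 12129, 21165, 12853 and 19388 normalized counts in control and 3268, 13067, 2849 and 4865 in knockout. Knockout replicate 2 overlapped the control range, and the log2 fold change was -1.69 (SE 0.45, adjusted p = 0.0324 by limma). The BCL2 call was lost with edgeR (adjusted p = 0.0750) and in 6 of the 8 fits that left out 1 library. BCL2L1, which encodes BCL-XL and lies on chromosome 20, had a log2 fold change of -0.64 (adjusted p = 0.0651 by limma, 0.0198 with the block). MYC and MCL1 had log2 fold changes of 0.16 and 0.08, with adjusted p-values of 0.400 and 0.753 by limma. With the block, ID1 was among the genes that passed as higher and CCND1 among those that passed as lower. CCND1 had a log2 fold change of -1.95 (adjusted p = 0.0520 by limma, 0.0157 with the block). ID1 had 1.77 (adjusted p = 0.278 by limma, 0.00315 with the block). Without the block, BCL2 and CCND1 met the study's own rule. ID1, CCND1 and the genes FLT3LG, IL7R, SOCS7, ELOB and SH2B3, were named after their values were seen.

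Transcripts that encode known PIM substrates included 2 of 18 that rose and 1 that fell, against 8.65% and 9.56% of all tested genes, with a median log2 fold change of 0.12. FOXO1, a forkhead factor, was scarce, with 2.41, 5.18, 2.15 and 11.3 normalized counts in control and 37.3, 22.9, 23.0 and 36.4 in knockout (log2 fold change 2.49, adjusted p = 0.00864 by limma). Its means were 5.26 in control and 29.9 in knockout, so it passed the filter of 10 only through the knockout. That filter favored a rise in advance, and FOXO1 is 1 of the 2 genes counted as risen. MAP3K5, the stress kinase ASK1, rose from 564 ± 43.8 to 1040.2 ± 167 (SD, n = 4), with an adjusted p of 0.00419 by limma. NUMA1, a spindle protein, fell by 0.49 on the log2 scale (adjusted p = 0.0126 by limma). Among relatives and receptors of OSM, 0 of 5 tested genes passed, which lies near the shares of all tested genes. OSMR and LIFR, the receptor chains that pair with gp130 to bind OSM, had at most 4.92 and 3.22 normalized counts in any library.

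**Figure D5:**
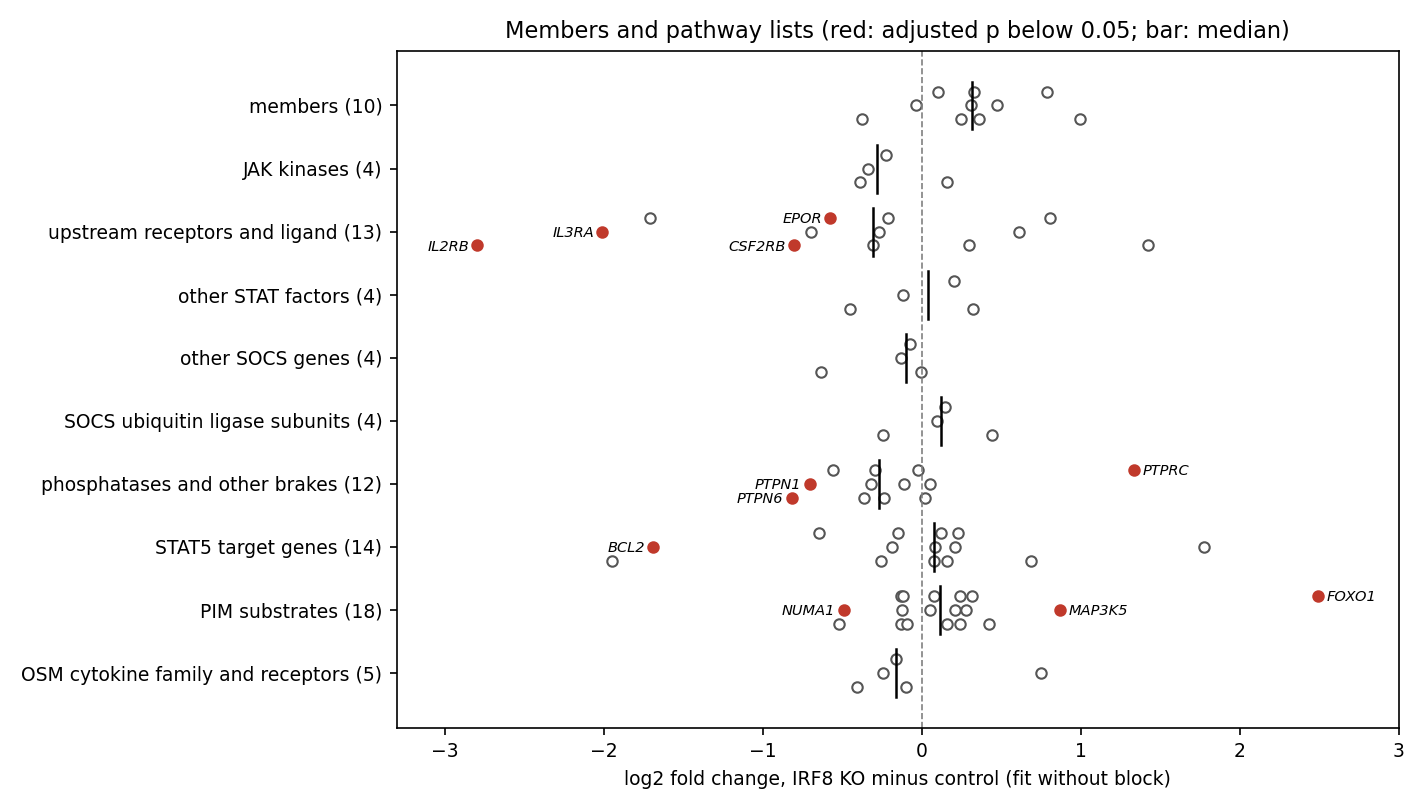
Log2 fold change, IRF8 KO minus control, without the block (horizontal axis) of each tested gene in the members and 9 pathway lists, with the number tested in brackets; red points have an adjusted p below 0.05 and black bars are medians. Over the 76 genes tested in the lists, 3 were higher and 8 lower, against 8.65% and 9.56% of all tested genes. Those higher include FOXO1, which passed the filter only through the knockout. The members' median of 0.32 lay beside that of the upstream receptors and ligand at -0.31.

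The genes most like SOCS3 over the 8 libraries were SAP30L, EIF3E, RMND1, OTUD5 and GLI4. Likeness was the root mean square difference between centered log2 profiles, and ran from 0.069 for SAP30L to 0.090 for GLI4. SAP30L had 1188, 1335, 1225 and 1348 normalized counts in control and 1575, 1865, 1855 and 1971 in knockout. Among the members, PIM3 came nearest to SOCS3, at 0.162 and rank 172 of 13109 genes. SOCS2 was next at rank 2145, and SOCS1 was the farthest at rank 9107. This order is a description over 8 libraries that share their depth and replicate structure.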

How the data were processed

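RNA-Seq libraries of 4 control and 4 IRF8 knockout samples of MV4-11 cells were analysed; 2 ChIP-Seq samples were not analysed here. Per the study's methods, reads from a stranded mRNA kit were aligned with RNA-Star to GENCODE transcripts and counted per gene with featureCounts. The submitters' processing notes list hg19 and hg38 without a role, so the build behind the RNA-Seq counts is not given in the sources, nor is the strand setting of the counting. The deposited signal per gene is the read count that the authors divided by DESeq2 size factors. Dividing by the value of 1 read gave whole reads for 100% of values (tolerance 0.01 reads), at 39560072 to 65519047 reads per library, so counting error is small for the members. Each column named WT was assigned to the equally numbered control replicate, and 0 columns were left unassigned. The authors' deposited comparison table (means, log2 fold changes, standard errors, a Wald score, p-values) was not used.

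Values were analysed as log2(normalized count + 1) with limma 3.58.1 in R 4.3.3, with a trended robust prior variance, for the 13110 genes averaging 10 or more, with Benjamini-Hochberg adjustment over all of them. Changes of low genes are understated on this scale. The main design had no block, and the study's methods name none. Same-numbered control and knockout libraries deviated from their group means with correlations across genes of 0.37, 0.48, 0.45 and 0.50. The numbers were therefore taken to pair the samples in the block. Replicate 1 also deviated with 3, and 2 with 4 (0.40 to 0.47), so the correlations do not single out that pairing. Alternatives were pseudocounts, filters, scalings, no trend, library weights, the recovered reads in edgeR 4.0.16 and in DESeq2 1.42.0, the block, and leaving out each library. On those reads, edgeR called 1127 genes higher and 1206 lower, and DESeq2 1679 and 1723. The limma fit without the block was run on simulated counts that had no replicate structure, so that run does not cover the blocked fit.

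The members and lists were chosen with earlier results of these data known. Named genes are the members, IRF8, up to 5 called genes of each list, FLT3, JAK2, STAT3, MYC, BCL2L1 and MCL1, and the 5 genes most like the member with the lowest p; others are named as exceptions. Chromosomes and promoters came from RefSeq, GRCh38.p14. Some genes of the lists are not reported here.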

Additional observations from a re-analysis of the deposited data

Results flagged for a closer look

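In the control group, OSM in replicate 1 stood apart from the other 3 libraries. Its gap to the nearest value was 0.901 of the range of the group, above Dixon's 95% critical value for 4 samples. The values were 673, 439, 424 and 413 normalized counts. This was the only one of 22 groups tested (the 10 members and IRF8 in control and in knockout) with such a gap, and chance gives about 1 in 20.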

How the results depend on the processing

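The number of members called higher was 0 by limma without a block and with the other pseudocounts, filters, upper quartile scaling and edgeR. It was 1 (SOCS3) with quantile normalization, without the trend, or with library weights, 2 with DESeq2, 3 with the replicate block, and 0 to 1 when a single library was left out, SOCS3 being called without knockout replicate 1 (adjusted p = 0.0463 by limma). Of all 13110 tested genes, limma without a block called 1134 higher. The number was 1292 with quantile normalization, 1080 without the trend, 1426 with library weights, 1679 with DESeq2 and 1857 with the replicate block. Leaving out a single library gave 759 to 1165 genes higher. In limma, the replicate block changed the call of no member other than PIM1, SOCS1 and SOCS3. In DESeq2, PIM3 was called without the block (0.0196) and not with it (0.0679). Within the block, PIM1 and SOCS1 were called in all 13 further settings, and SOCS3 in 7, with adjusted p-values of 0.0511 without a filter and 0.0506 with upper quartile scaling. CISH was called higher with the block in DESeq2 (0.0348) and in limma without replicate 1 (0.0473), and PIM2 lower without replicate 3 (0.0298). The number of members that varied with the replicate number was 0 without the trend, and 1 to 3 when both libraries of a number were left out, with 1 without replicate 2, 3 or 4. STAT5B changed sign with library weights (0.0727), and ran from -0.18 to 0.0682 when single libraries were left out. Without the block, OSM ran from -0.00930 to 0.27, the former without knockout replicate 2. With the block, OSM was -0.0491 without replicate 2, -0.0311 without replicate 3 and 0.390 without replicate 1. The SOCS2 to CISH ratio ran from -0.0713 to 0.15. The ratios PIM2 to PIM1 and SOCS1 to CISH kept an exact permutation p below 0.05 in 2 of 8 comparisons without 1 library, and had p = 0.0571 in the other 6. No other ratio or log2 fold change of a member changed sign. The block fits beyond the planned one were added after seeing the data. With 4 libraries a group, the 95% intervals of STAT5A and SOCS2 end at 1.01 and 0.91 without the block and at 0.84 and 0.67 with it.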
